A study of Mus musculus with 12 samples.

Results

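Spermatid-like cells (SLC), made in vitro, were compared with round spermatids (RS) of the mouse testis. The 3 arrays that the submitters titled as spermatids and the 3 titled as the in vitro counterpart were taken by title. They are 6 of the 12 arrays of the series. The remaining arrays held primordial germ cells (PGC), titled as male and embryonic, and PGC-like cells (PGCLC), titled as day 6. RS came from testes of 3-week BDF1 male mice. SLC are labelled as products of in vitro differentiation, and their starting cells, culture conditions and day of collection are not given in the sources used here. Both groups were collected by FACS, with no gate named, and were lysed in TRIZOL. Total RNA was amplified, labelled with biotin and hybridised to Affymetrix 3' expression arrays with 45101 probe sets. Each sample is a population of cells, so a smaller share of cells of a type and less RNA of that type per cell cannot be told apart. The labels call the 3 samples of a group biological replicates without naming separate animals or cultures, so p-values measure the spread between these samples, which may be technical.

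Round spermatids are the haploid cells that leave meiosis and go on to build a sperm. They transcribe genes for the acrosome, the enzyme-filled cap that opens at the egg, for the flagellum, and for the transition proteins and protamines that will replace histones, and they store many of these mRNAs for later translation. Around them in the tubule lie Sertoli cells and the contractile peritubular myoid cells, with steroid-producing Leydig cells outside. Germ cells give up most of their cytoplasm and transcription as they mature.

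Signals are the authors' linear intensities, in arbitrary units that each array shares after scaling. A gene was followed through its brightest probe set, and 12998 genes lay above 92.0 units on at least 3 of the 6 arrays and were tested. Values under 30.75 units were set to that floor before the log2 transformation. A gene was called, and is said to have risen or fallen, where the 2 groups differed at least 2-fold (1 on the log2 scale) at a limma p under 0.05 after Benjamini-Hochberg adjustment. The words "at least" stand before a fold that is a lower bound because values of the dimmer group were raised to the floor. The arrays of a group were alike: Pearson's r over genes, which are not independent of each other, was 0.978 to 0.986 within RS, 0.984 to 0.988 within SLC and 0.749 to 0.757 between them. RS replicate 1 had an array median of 99.9 units against 76.3 and 73.2 in the other RS arrays, while the SLC medians were 94.7 to 104. The log2 ratio of 3' to 5' probe sets for Gapdh, a measure of RNA integrity and labelling, was -0.01, 0.20 and 0.19 in RS and -0.56, -0.51 and -0.43 in SLC. The groups did not overlap in this ratio (two-sided exact permutation p = 0.1, the smallest that 3 against 3 arrays allow). The same ratio for Actb averaged 0.48 in both groups, and the part of RNA quality in the results was not tested.

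Far more genes were called higher in SLC than lower. Of 12998 genes tested, 3118 (24%) rose and 483 (3.72%) fell. Among the rises, 442 were at least 16-fold, 1345 were 4-fold to 16-fold and 1331 were under 4-fold. Among the falls, 481 were under 4-fold, 2 were over 4-fold and none reached 16-fold. The 2 groups did not overlap on any array for 10305 genes (79.3%). Without a minimum fold, 4380 genes (33.7%) were higher and 5585 (43%) lower, so most of the lower side consisted of small differences. The fullest part of the distribution was not at 0: the interval of 0.1 that held the most genes, 1116, ran from -0.8 to -0.7, and 4403 genes (33.9%) lay between -1 and -0.5.

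The number of falls depended on how the arrays were scaled. The authors' scaling, kept here, sets the trimmed mean of each array equal. Centring each array on its median gave 2741 higher and 2587 lower genes, so that 51.4% of calls were rises in place of 86.6%, and quantile normalization gave 2546 and 2401, with 51.5% rises. These scalings moved the median of all genes, -0.23, by a further -0.26 and -0.15. A gene at about -0.75, where the spermatid genes described next lie, can thus be called or not with the choice of scaling.

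**Figure D1:**
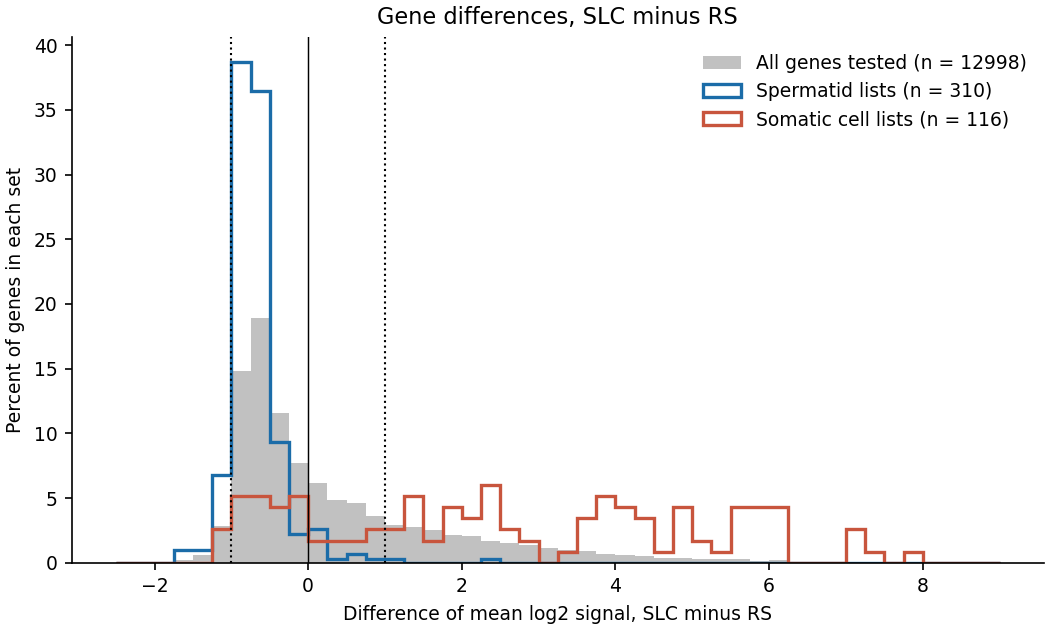
Histogram of the difference of mean log2 signal, SLC minus RS, for all 12998 genes tested (grey), the 310 genes of the spermatid lists (blue) and the 116 genes of the somatic cell lists (red), as the percent of each set in intervals of 0.25. Dotted lines mark 2-fold, and the spermatid genes stand in a narrow peak whose median is -0.74, just short of the left line.

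Spermatid genes were bright in both groups, and most lay lower in SLC by less than 2-fold. The 13 lists of spermatid genes held 310 tested genes, of which 27 fell, 2 rose and 233 (75.2%) lay between -1 and -0.5. Their median was -0.74, with quartiles at -0.87 and -0.60, against quartiles of -0.68 and 0.93 over all genes. With median centring 159 of them fell (median -1.0), and with quantile normalization 66 fell (median -0.61). The difference was smallest for the brightest genes: the median was -0.49 for the 30 genes above 15000 units, -0.72 for the 89 from 5000 to 15000, -0.81 for the 121 from 1000 to 5000 and -0.75 for the 70 below 1000. Of the 100 brightest genes in RS, 73 were also among the 100 brightest in SLC, and none of the RS 100 was called in limma (median -0.45). Of the SLC 100, 16 rose and none fell (median -0.36).

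Protamine and transition protein mRNAs were among the brightest on the arrays of both groups. Prm1, which encodes protamine 1, read 32554, 33603 and 32384 units in RS and 27208, 24408 and 24490 in SLC (log2 -0.37, SE 0.047, adjusted p = 7.96e-05). Prm2 read 31163, 29442 and 27988 units in RS and 24331, 24124 and 24877 in SLC (log2 -0.27, and 0.02 with quantile normalization). Tnp1, for transition protein 1, read 30417, 33342 and 29579 units in RS and 25797, 24546 and 24542 in SLC (log2 -0.32). On the authors' scaling the SLC arrays lay below every RS array for all 3 genes, by less than 2-fold. Tnp2 was at log2 -0.43. In the list of histone replacement genes 0 of 11 tested reached the 2-fold minimum and were called, although 9 were lower at an adjusted limma p under 0.05. The lowest members were Chd5, a chromatin remodeller of spermatids (log2 -0.81), and Brdt, a bromodomain protein that reads acetylated histones in spermatids (log2 -0.79).

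Among acrosome genes the protease proacrosin stood out. Acr, its gene, read 5131, 4654 and 4426 units in RS and 2092, 1993 and 1639 in SLC. The 2 groups did not overlap, and Acr fell 2.49-fold (log2 -1.32, SE 0.098, adjusted p = 2.86e-06). Acrbp, whose product binds proacrosin, fell 2.04-fold, and these were the 2 of 17 tested genes for acrosomal contents that fell. Acrv1, an acrosomal matrix protein, read 10674, 12313 and 12002 in RS and 7178, 7506 and 7741 in SLC and was not called (log2 -0.64). Of 22 tested genes for building the acrosome and fusing with the egg, 2 fell. One was Dcst1, a sperm membrane protein needed for fertilization, which read 1049, 916 and 952 units in RS and 492, 253 and 246 in SLC and fell 3.1-fold. The other was Pick1, which acts in vesicle traffic to the acrosome, and fell 2.1-fold. Of 22 ADAM-family genes and their chaperones, Ace, a peptidase whose testis form is needed for fertility, fell 2.33-fold and Adam25 fell 2.1-fold. Tpst2, a tyrosylprotein sulfotransferase that acts on sperm surface proteins, rose 4.79-fold from 75.8, 162 and 128 units to 516, 586 and 574. Several of these falls were near the limit: the log2 difference was -0.99 for Acrbp and for Adam25 without SLC replicate 3, and for Pick1 -0.99 without RS replicate 2 and -0.98 without SLC replicate 1. Ace has a second probe set that was not called.

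Izumo1, the sperm receptor that binds the egg, read 4276, 4330 and 4696 units in RS and 2370, 2629 and 2608 in SLC (log2 -0.81). Its promoter is shown because it holds the letters TGACGTCA of a cAMP response element (CRE), the motif that the spermatid activator CREM binds, and Crem itself was at 7762, 9329 and 9299 units in RS and 5220, 5288 and 5129 in SLC (log2 -0.75, not called). The sequence is from RefSeq (GRCm38.p6), chr7:45621561-45621810, plus strand, the 250 bases before the start of the gene, with the motif in capitals.
Izumo1 promoter: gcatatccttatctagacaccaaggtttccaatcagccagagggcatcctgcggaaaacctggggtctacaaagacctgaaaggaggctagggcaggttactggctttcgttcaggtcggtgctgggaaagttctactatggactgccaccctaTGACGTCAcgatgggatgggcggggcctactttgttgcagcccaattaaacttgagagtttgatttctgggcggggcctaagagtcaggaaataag
On either strand, the CRE was found in 1.55% of all 32851 promoter windows of this length, in 2.48% of the 13424 windows of tested genes and in 7 of 299 windows of the spermatid lists (2.34%). The 7 windows belonged to Ccin, Ift57, Izumo1, Kif17, Lrguk, Spag4 and Spag6l. These shares are descriptions of letters in the window, not of bound sites.

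Tail genes differed by a similar amount, with a few that fell further. Odf1, an outer dense fibre protein, read 21703, 24864 and 22766 units in RS and 15737, 15831 and 16257 in SLC (log2 -0.53). Akap4, the main scaffold of the fibrous sheath, was at log2 -0.58. Of the 17 tested genes of these 2 structures, Tcp11 fell 2.08-fold and Cabyr, a calcium-binding fibrous sheath protein, fell 2.1-fold. Of 55 axoneme genes 6 fell, led by Cfap61, a protein of the calmodulin and spoke complex, which read 1006, 1144 and 1327 units in RS and 373, 415 and 354 in SLC and fell 3.03-fold. Dnah2, an inner arm dynein, fell 2.18-fold, and Foxj1, the regulator of motile cilium genes, fell 2.13-fold. Of 36 genes for intraflagellar transport and the BBSome, Bbs9 alone fell (2.01-fold), and Ttc8, also a BBSome subunit, was higher without reaching 2-fold (log2 0.80). In the manchette and head-shaping list 2 of 22 fell, the cylicins Cylc2 (2.28-fold) and Cylc1 (2.01-fold), which lie in the perinuclear theca. Close to the limit were Bbs9, at -0.98 without RS replicate 1, -0.93 without SLC replicate 1 and -0.97 without SLC replicate 2, and Cylc1, at -0.90, -0.98 and -0.91 without RS replicate 1, RS replicate 2 and SLC replicate 1. Tcp11 was at -1.0 and no longer called without SLC replicate 2, and 2 of the 3 probe sets of Cabyr were not called.

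Of 17 tested genes for sperm channels, pumps and cAMP signalling 4 fell (23.5%), against 3.72% of all genes, a larger share than in most spermatid lists. Catsperg1, a subunit of the CatSper calcium channel that drives hyperactivated swimming, read 1315, 977 and 1073 units in RS and 481, 331 and 311 in SLC. The groups were well apart, and it fell 3.03-fold (log2 -1.60, SE 0.18, adjusted p = 3.84e-05). The gene has a close copy in the mouse genome that may share its signal, and 1 of its 2 probe sets passed the call. Pkdrej fell 2.45-fold, Lrrc52, an auxiliary subunit of the sperm potassium channel, fell 2.15-fold, and Trpc2 fell 2.05-fold. Trpc2 was near the limit (log2 -1.03, 95% interval -1.52 to -0.55), at 305, 451 and 290 units in RS and 141, 182 and 181 in SLC. Catsper1, the pore subunit, was not called (log2 -0.71). The Catsperg1 promoter is printed as an example of the X-box, the motif of the RFX factors that act on ciliary and flagellar genes, searched with 6 of its 14 letters free, and Rfx2, the RFX factor of spermatids, read 4057, 4824 and 4748 in RS and 2402, 2232 and 2254 in SLC (log2 -0.98, not called; -1.06 and called without RS replicate 1, -1.01 and called without SLC replicate 1). The window is the 250 bases before 1 of the 2 starts that RefSeq lists for the gene, chr7:29214034-29214283 (GRCm38.p6, minus strand), with the motif in capitals.
Catsperg1 promoter: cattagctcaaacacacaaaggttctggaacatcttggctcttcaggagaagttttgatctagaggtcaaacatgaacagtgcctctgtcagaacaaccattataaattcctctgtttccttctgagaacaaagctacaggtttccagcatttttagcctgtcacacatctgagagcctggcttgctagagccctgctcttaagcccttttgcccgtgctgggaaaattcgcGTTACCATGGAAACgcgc
The X-box was found in 14 of the 299 windows of the spermatid lists (4.68%), against 2.24% of the windows of tested genes and 1.57% of all windows. In windows of called genes it was found in 2.79% of those that fell and 1.22% of those that rose. No test was made of these shares.

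In the remaining spermatid lists few genes were called. None of 19 sperm isoforms of energy enzymes reached the 2-fold minimum, although each of the 19 was lower at an adjusted limma p under 0.05 (median -0.70). Among testis kinases 2 of 19 fell, Tssk5 (2.12-fold) and Tsks (2.06-fold), a kinase of the late spermatid and the substrate of that kinase family. Pou5f2, a POU factor of germ cells, was the 1 of 22 transcription regulators that fell (2.7-fold). Of 31 genes for RNA binding and piRNA, Boll (2.13-fold), Ybx2 (2.09-fold), which packages stored mRNA, and the helicase Tdrd9 (2.03-fold) fell. Ybx2 was the brightest of the 3 and read 15706, 16228 and 16440 units in RS and 8767, 7229 and 7227 in SLC. Paip2, an inhibitor of the poly(A)-binding protein, rose 2.25-fold. Among RIKEN clone genes with 1 of 3 chosen name prefixes, 38 of 452 tested fell and 2 rose, with a median of -0.77, and with median centring 259 of them fell. Of 65 Spata, Spag and Tex genes 6 fell and 1 rose. Tex22, an acrosome-associated protein, fell the furthest of these, from 3439, 4242 and 4331 to 1582, 1385 and 1419 units (2.73-fold). Without SLC replicate 1, Tssk5 was at -0.92 and Tsks at -0.99, and Tdrd9 lay between -0.99 and -0.95, not called, without any 1 of RS replicates 2 and 3 and SLC replicates 1 and 2.

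**Figure D2:**
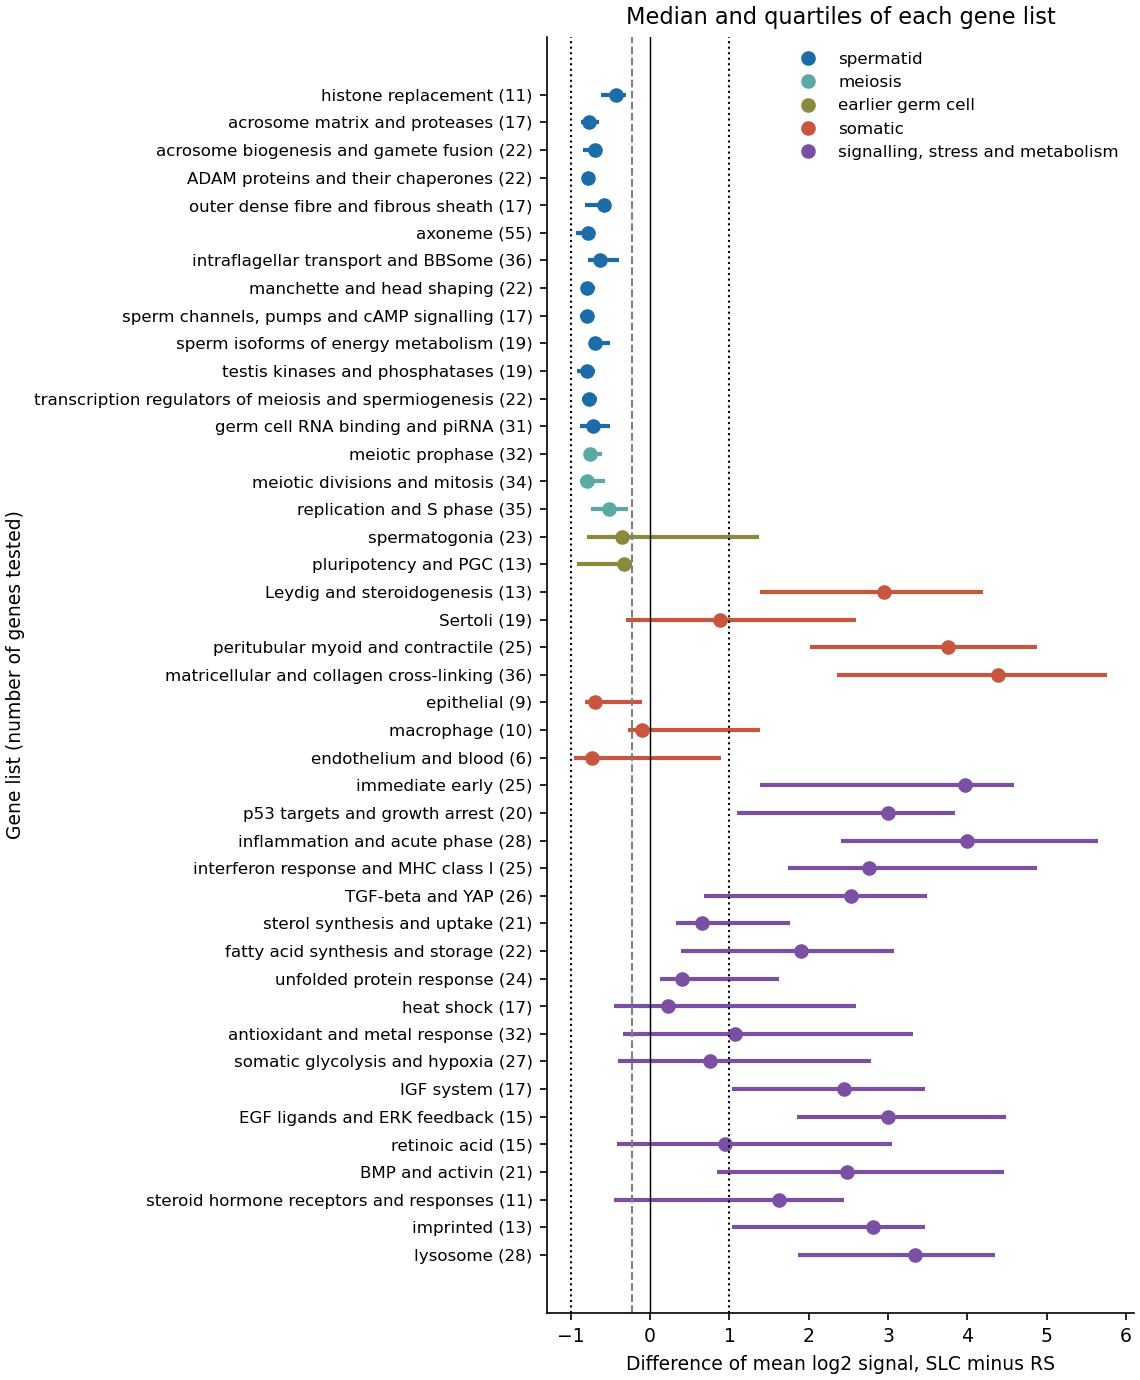
Median (point) and quartiles (line) of the difference of mean log2 signal, SLC minus RS, for 43 gene lists, with the number of genes tested in brackets. Dotted lines mark 2-fold and the dashed line the median of all genes, -0.23. Spermatid and meiosis lists form a column between -0.80 and -0.43. Most signalling, stress and metabolism lists and the Leydig, myoid and matricellular lists have medians to the right of 1. The medians of the Sertoli (0.88), macrophage (-0.10), epithelial (-0.69) and endothelial (-0.73) lists do not reach it.

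Most meiosis and cell division genes were lower in SLC by less than 2-fold, and 1 of 101 was called. Sycp3, of the synaptonemal complex that joins paired chromosomes, read 4836, 4183 and 4003 units in RS and 2473, 2559 and 2599 in SLC (log2 -0.77). None of 32 prophase genes was called at the 2-fold minimum, although 27 were lower at an adjusted limma p under 0.05. Of 34 genes of the meiotic divisions and mitosis only Plk1, a kinase that drives entry into division, fell (2.01-fold). The 35 replication genes had a median of -0.52 with none called. Without a minimum fold, 24 were lower and 3 higher at an adjusted limma p under 0.05. Cdt1, which licenses replication origins, was the highest at log2 0.92, and Ccne1, a cyclin of S phase entry, was at 0.88, and both were called without RS replicate 1 (1.10 and 1.0). Plk1 was at -1.0, -0.99 and -0.97, and not called, without RS replicate 2, SLC replicate 2 and SLC replicate 3. Across these lists 49 genes fell with median centring and 37 with quantile normalization.

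Of 23 tested spermatogonial genes 6 rose (26.1%) and 2 fell, a share of rises near the 24% of all genes, and in the pluripotency and PGC list 3 of 13 rose (23.1%). Ccnd2, a D-type cyclin, read 199.5, 132 and 122 units in RS and 3180, 3031 and 3312 in SLC and rose 21.5-fold. Cd9 rose 20.2-fold and Thy1 rose 11.8-fold, and both surface proteins are also made by many other cell types. Zbtb16, a factor of undifferentiated spermatogonia, overlapped between the groups at 120.4, 97.7 and 111 units in RS and 137, 37.6 and 82.3 in SLC (log2 -0.54, adjusted p = 0.281). Kit, the receptor of differentiating spermatogonia, was lower without reaching 2-fold (log2 -0.92, and -1.06 and called without SLC replicate 1). Neurog3, of early spermatogonia, fell 2.11-fold, but was at -0.98 and -0.99 without SLC replicates 1 and 2. In the pluripotency and PGC list Pou5f1, a core pluripotency factor, fell 2.23-fold, from 220.1, 172 and 173 units to 102, 70.3 and 81.96, and Zfp42 fell 2.04-fold (-0.93 without RS replicate 1 and -0.97 without SLC replicate 3, not called). Nanog and Sox2 lay at the floor on all arrays of both groups, and Prdm14 just above it in RS (37.1, 32.4 and 31.1 units) and at it in SLC. The 3 rises of that list were Ifitm3, Ifitm1 and Prdm1, and the Ifitm genes also respond to interferon.

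Several energy, ribosome and cytoskeleton genes have 1 copy used in most cells and 1 used mainly in the testis, and in most pairs examined the 2 genes differed. Of 25 pairs, chosen after the values were seen, both genes were tested in 19. Acsl4 was paired by function, fatty acid activation, and its partner is not a copy. The Y-linked gene for eIF2 gamma was counted as a testis gene, though it is not confined to the testis. The widely expressed gene rose in 14 of the 19, these pairs included, and the testis gene was called in none of the 19 by limma. In a pair whose other gene was not tested, the testis copy G6pd2 fell 3.55-fold. The median difference was -0.69 for the testis genes and 2.52 for their relatives. Pgk2, the phosphoglycerate kinase of sperm, read 17055, 18690 and 18369 units in RS and 12373, 11808 and 11892 in SLC (log2 -0.58). Its X-linked relative Pgk1 read 556, 484 and 512 units in RS and 4934, 4736 and 4550 in SLC and rose 9.17-fold (adjusted p = 2.9e-09). Pgk1 was thus far apart between the groups, while Pgk2 differed by less than 2-fold. Pdha1 rose 11.6-fold while Pdha2, its retrocopy, was at log2 -0.76. Rps4x, a ribosomal protein gene on the X, read 331, 361 and 363 units in RS and 10725, 10726 and 10995 in SLC and rose 30.8-fold, while Rps4l was at log2 -0.63.

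Other pairs gave the same order. Slc25a4, an adenine nucleotide carrier of mitochondria, rose 24.2-fold and the germ cell carrier Slc25a31 was at log2 -0.71. Hspa1b, a stress-inducible heat shock protein whose near-identical neighbour may share its signal, rose 20.3-fold while Hspa1l was at log2 -0.69. Tuba1a rose 12.9-fold against -0.75 for Tuba8. Calr, a chaperone of the endoplasmic reticulum, was at log2 0.34 and Calr3 at -0.88. In 4 pairs the widely expressed gene was lower and not called: Ldha (log2 -0.50) beside Ldhc (-0.35), Papola (-0.63) beside Papolb, Capza1 (-0.43) beside Capza3, and Rpl39 (-0.09) beside Rpl39l (-0.46). Rpl39 overlapped between the groups, and the other genes were bright in RS, with Ldha at 15175, 16165 and 16126 units. Ldhc and Ldha formed the only pair of the 19 in which the testis gene had the higher difference.

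**Figure D3:**
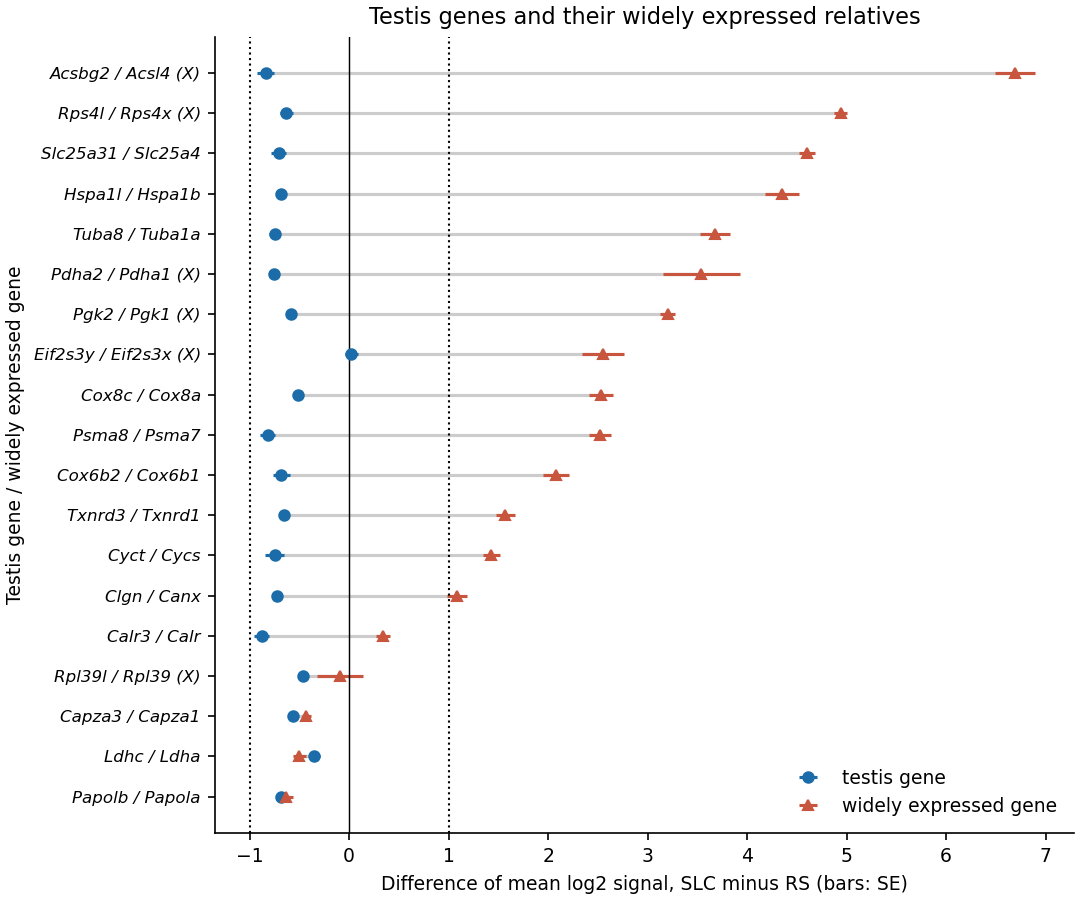
Difference of mean log2 signal, SLC minus RS, with its SE, for testis genes (circles) and their widely expressed relatives (triangles) in 19 pairs, ordered by the relative, with X marking X-linked relatives. The genes counted as testis genes lie between -0.88 and 0.02, the last being the Y-linked gene for eIF2 gamma. Among the relatives 14 lie beyond the right dotted line at 2-fold.

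Markers of testicular somatic cells summed to more signal in SLC for the Leydig, Sertoli and myoid lists. A gene that is dim in RS entered the test only where it was bright in SLC, so these counts describe the tested genes and not whole lists. Of 21 listed Leydig and steroidogenesis genes 13 were tested and 10 rose. Star, which carries cholesterol into mitochondria, read 28.9, 61.03 and 43.8 units in RS and 2383, 2581 and 2949 in SLC and rose (60.4-fold by the fitted difference and 59.2-fold by the ratio of means, with an RS array at the floor). Cyp11a1, which starts steroid synthesis from cholesterol, read 4.01, 14.3 and 8.57 units in RS and 4305, 4002 and 4039 in SLC and rose at least 134-fold. All RS arrays lay at the floor for Cyp11a1, and 2 further probe sets of the gene read at most 66.2 units on every array of either group. Hsd3b1, a later enzyme, rose from 66.1, 27.1 and 43.1 to 566, 598 and 566 units. Cyp17a1, which commits steroids to androgens, was under the filter, with 18.6, 20.4 and 62.7 units in SLC, and so was Hsd17b3 at 32.3 to 43.7 units. Summed over the 15 list members on the array, signal was 8420 to 8601 in RS and 28761 to 29489 in SLC.

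Sertoli markers were mixed. Of 28 listed genes 19 were tested and 9 rose. Inhba, an activin subunit, read 86.98, 94.9 and 14.2 units in RS and 3817, 4212 and 4511 in SLC, Inhbb rose at least 45.9-fold and Kitl, the KIT ligand, rose 12.2-fold. Sox9, the defining factor of the lineage, read 96.5, 66.3 and 80.2 units in RS and 173, 185 and 219 in SLC and rose 2.39-fold (log2 0.99 with median centring and 0.88 with quantile normalization, not called). Wt1 rose from 77.05, 111 and 36.3 to 598, 489 and 503 units. Amh, Dhh, Fshr and Cldn11 were under the filter, and the highest SLC array among them was 99.1 units, for Cldn11. Summed signal of the 26 members on the array was 4903 to 5558 in RS and 14673 to 15996 in SLC.

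Of 25 tested contractile genes 23 rose. Cald1, which regulates actin and myosin, read 160.2, 179 and 165 units in RS and 12856, 11822 and 12298 in SLC and rose 73.3-fold (SE 0.075 on the log2 scale, adjusted p = 1.24e-10). Acta2, smooth muscle actin, read 1293, 1172 and 1020 units in RS and 15432, 15406 and 15796 in SLC and rose 13.4-fold. Vim, the intermediate filament of mesenchymal cells, rose 39.6-fold. The 26 members summed to 15626 to 16465 units in RS and 121680 to 126997 in SLC. Actg2, a smooth muscle actin that was bright in RS (8732, 8754 and 8933 units), was lower in SLC (log2 -0.42). Myh11, the smooth muscle myosin, rose from 104, 51.3 and 96.7 to only 155, 178 and 186 units, and Des was not called.

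Of 36 tested matricellular and cross-linking genes 34 rose (94.4%), with a median of 4.39, against 24% of all genes. Of 42 collagen chains on the array 33 were tested, and 19 of these rose (57.6%) and 1 fell. As in the lists above, a gene dim in RS entered the test only where it was bright in SLC. Sparc, a matrix glycoprotein, read 659.9, 765 and 730.1 units in RS and 25036, 24709 and 25440 in SLC, which put it among the 10 brightest genes of SLC (34.9-fold). Col1a1, a chain of fibrillar collagen, read 94.3, 69.5 and 165 units in RS and 8013, 8740 and 8282 in SLC and rose 81.2-fold. Col5a2 rose 162-fold, Col3a1 rose 69.7-fold, Lox, which cross-links collagen, rose 162-fold, and Thbs1 rose at least 224-fold. No SLC array overlapped an RS array for these genes, most of which are made by fibroblasts, myoid cells and other mesenchymal cells. Timp1, an inhibitor of metalloproteinases, rose 136-fold together with Mmp2, a metalloproteinase that it inhibits (134-fold). Of 22 annexin and S100 genes on the array 13 were tested and all 13 rose, led by Anxa1 (91.5-fold) and S100a6 (76.5-fold). The filter favours such a count, and the 9 genes not tested are outside it.

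Markers of epithelium, endothelium and blood gave little. None of 9 tested epithelial genes rose and 2 fell, Esrp1 and Ovol2, while 1 was higher by less than 2-fold at an adjusted limma p under 0.05. Cdh1 read 2.3 to 35.5 units in SLC, and keratins had 0 of 11 called, with 5 lower at an adjusted limma p under 0.05. Of 6 tested endothelial and blood genes Cdh5 (3.11-fold) and Eng (2.56-fold) rose and Cldn5 fell, though Eng was at 0.86 with quantile normalization, and Cldn5 at -0.94 and Ovol2 at -0.95 without SLC replicate 3. Pecam1, a defining marker, was at 13.6 to 48.4 units in SLC. Among macrophage markers 4 of 10 tested rose. Mpeg1 rose at least 12.3-fold to 440.2, 476 and 400.5 units and Lyz2 rose 4.41-fold, whereas Csf1r and Adgre1 were not called, Ptprc read 21.4 to 41.7 units in SLC and C1qa lay at the floor in both groups. Summed over 19 macrophage members, signal was 15186 to 16866 units in RS and 11908 to 12740 in SLC. Aif1, which was bright in both groups, made up most of that sum, and the order turned without it, with 2212 to 2632 in RS and 2900 to 3452 in SLC. What part other cells have in the SLC profile was not tested.

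**Figure D4:**
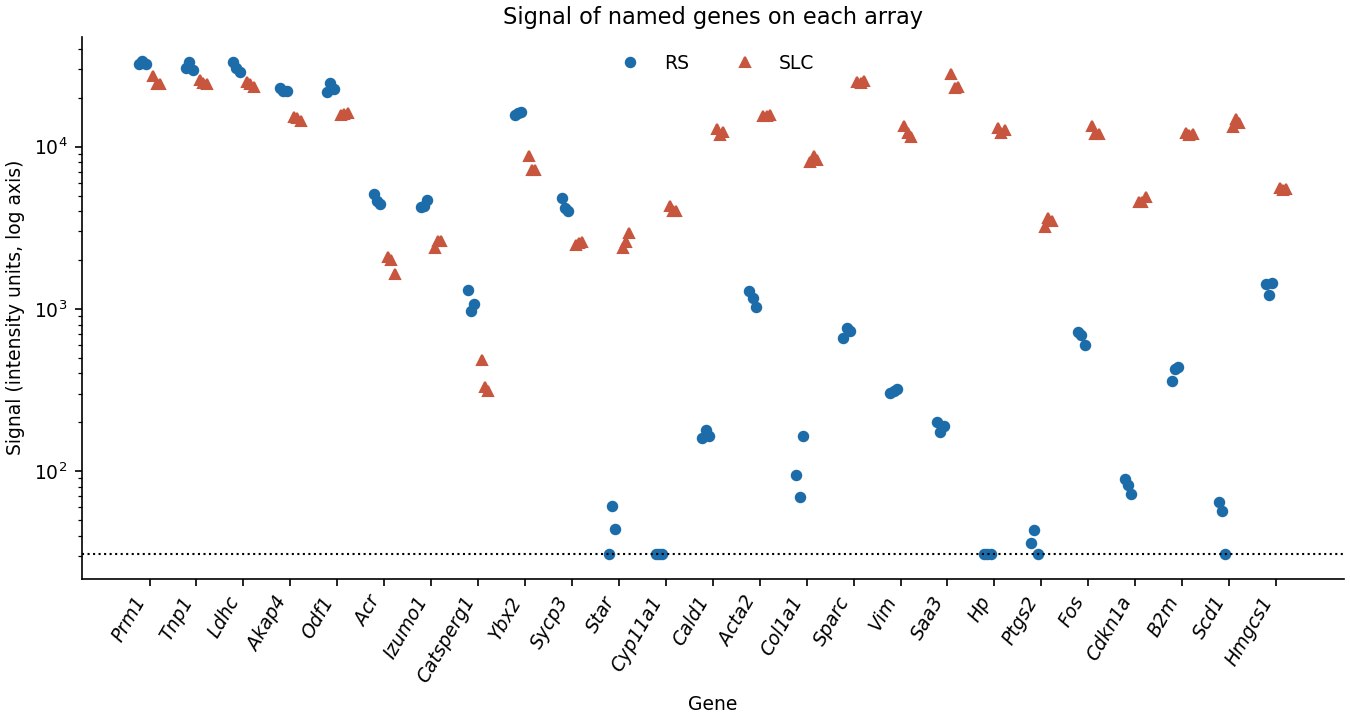
Signal of 25 named genes on each of the 3 RS arrays (circles) and 3 SLC arrays (triangles), in intensity units on a log axis. The dotted line is the floor of 30.75 units, at which lower values are drawn. The 10 germ cell genes on the left are lower in SLC on every array by less than 4-fold, and the 15 genes on the right are higher on every SLC array.

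Of 28 tested genes of inflammation and the acute phase 26 rose (median 4.0), and many of these were at or near the floor in RS and entered the test through SLC. Hp, haptoglobin, read 9.3, 20.5 and 22.3 units in RS and 13069, 12176 and 12669 in SLC and rose at least 411-fold. Saa3, a serum amyloid made by activated stromal cells and macrophages, read 201, 174 and 188 units in RS and 28198, 22909 and 23516 in SLC and rose 132-fold (adjusted p = 1.85e-10). Ptgs2, the inducible cyclooxygenase, rose at least 94.2-fold. For each of these 3 genes all RS arrays were dim and all SLC arrays bright. Cebpb, a transcription factor of the acute phase, rose 90.9-fold. The chemokine genes Ccl2 (65.5-fold) and Ccl7 (at least 84-fold) rose, whereas Il1b overlapped between the groups and was not called (log2 -0.78, adjusted p = 0.0977; -1.04 with median centring, called).

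Promoters of this list are shown because NF-kB letters, those bound by an inducible factor of inflammation, were found in a larger share of them than of all windows. The NF-kB motif, as capitalized in the Cxcl1 and Cxcl2 promoters and with any base allowed at 1 of its letters, occurred on either strand in 5 of 21 windows of the list (23.8%), those of Csf1, Cxcl1, Cxcl2, Il6 and Nfkbia, and in 0.356% of all windows. Among windows of called genes it was found in 0.47% of those that rose and 0.429% of those that fell. Cxcl1, a chemokine for neutrophils, read 168, 163 and 212 units in RS and 8104, 8119 and 7995 in SLC and rose 44.8-fold, and Cxcl2 read 53.5, 63.7 and 93.5 units in RS and 189, 212 and 177 in SLC. Their windows are chr5:90890995-90891244 and chr5:90903649-90903898 (RefSeq, GRCm38.p6, plus strand), and that of Saa3 is chr7:46715677-46715926 (minus strand), each the 250 bases before the start. Capitals mark the NF-kB letters in Cxcl1 and Cxcl2 and, in Saa3, the C/EBP letters TTGCNNAA read on the other strand.
Cxcl1 promoter: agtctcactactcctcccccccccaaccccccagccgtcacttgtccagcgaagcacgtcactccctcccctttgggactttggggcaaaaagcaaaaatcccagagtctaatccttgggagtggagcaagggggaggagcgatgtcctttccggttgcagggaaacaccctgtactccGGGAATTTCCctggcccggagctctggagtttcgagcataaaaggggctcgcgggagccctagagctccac
Cxcl2 promoter: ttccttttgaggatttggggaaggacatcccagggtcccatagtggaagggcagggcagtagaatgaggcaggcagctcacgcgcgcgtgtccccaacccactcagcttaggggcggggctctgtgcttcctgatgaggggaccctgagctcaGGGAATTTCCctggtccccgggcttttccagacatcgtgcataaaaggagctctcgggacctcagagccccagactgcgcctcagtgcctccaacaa
Saa3 promoter: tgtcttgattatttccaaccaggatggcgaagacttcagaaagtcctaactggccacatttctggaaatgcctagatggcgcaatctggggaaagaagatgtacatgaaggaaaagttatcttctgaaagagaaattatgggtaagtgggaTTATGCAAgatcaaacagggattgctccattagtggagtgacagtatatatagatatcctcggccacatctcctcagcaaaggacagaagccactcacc
The C/EBP letters occurred in 23.8% of the windows of the list (Il33, Il6, Lcn2, Ptgs2 and Saa3) and in 9.56% of all windows. The AP-1 letters TGANTCA occurred in 19% and 6.75%. No test was made of these shares, and a match is not a bound site.

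Of 25 tested interferon and antigen presentation genes 20 rose (80%), against 24% of all genes. Those that were dim in RS entered the test only through SLC. Ifitm3 read 424, 299 and 331 units in RS and 16888, 16004 and 16252 in SLC and rose 47.1-fold. B2m, the light chain of MHC class I, read 360.4, 425 and 438 units in RS and 12157, 11796 and 11966 in SLC and rose 29.5-fold. Psmb8 and Psmb10, subunits of the immunoproteasome, rose at least 8.52-fold and 6.46-fold. Every SLC array lay above every RS array for each of these 4 genes.

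Most growth and damage signalling genes were higher as well. In these lists too, a gene dim in RS entered the test only where it was bright in SLC. Of 25 immediate early genes 20 rose (80%), against 24% of all genes. Fos read 716, 686 and 601 units in RS and 13361, 12025 and 12058 in SLC and Jun read 220.4, 215 and 205 units in RS and 3973, 4088 and 4117 in SLC, rises of 18.7-fold and 19-fold. Klf6 rose 87.2-fold and Ier3 51.4-fold, while Klf4 was bright in both groups (8396, 8266 and 7846 units in RS and 7990, 7889 and 7761 in SLC, log2 -0.05, and 0.27 with quantile normalization). The CRE letters occurred in 3 of 26 windows of this list (11.5%), those of Btg2, Dusp1 and Maff. Of 20 p53 targets and growth arrest genes 15 rose, led by Cdkn1a, the p21 inhibitor of cyclin-dependent kinases, which read 88.8, 81.6 and 71.7 units in RS and 4530, 4588 and 4903 in SLC (58.1-fold), and Ccng1 (56.8-fold). Without a minimum fold, 2 of the 20 were lower at an adjusted limma p under 0.05, Tnfrsf10b (log2 -0.74) and Mdm2 (log2 -0.63). Only 1 of the 2 probe sets of Mdm2 was lower, and neither was called. In the list of EGF ligands and ERK feedback genes 12 of 15 rose, among them the ligand Ereg (at least 114-fold) and the phosphatase Dusp6 (87.7-fold). Of 26 TGF-beta and YAP genes 19 rose, among them the receptor Tgfbr2 (49.9-fold) and Ankrd1, a target of YAP (at least 28.6-fold). At an adjusted limma p under 0.05 without a minimum fold, 5 of the 26 were lower, down to log2 -0.78.

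Hormone and growth factor lists gave further rises. As in the somatic lists, a gene dim in RS entered the test only where it was bright in SLC. In the IGF system 13 of 17 rose, with Igfbp5 rising at least 235-fold and Igfbp7 rising 37.4-fold. Of 21 BMP and activin genes 15 rose, among them Fstl1 (93.5-fold) and Id3, a target of BMP signals (60.6-fold). In the retinoic acid list 7 of 15 rose, including the synthetic enzyme Aldh1a1, from 212, 81.6 and 299.5 to 2160, 2107 and 2402 units (12.8-fold), whereas Stra8, the germ cell target of retinoic acid, was at log2 -0.78 and not called. In the list of steroid hormone receptors and responses 6 of 11 rose, and Sgk1, a kinase induced by serum and glucocorticoids, rose 141-fold. Of 26 listed imprinted genes 13 were tested and 10 of these rose, a count that describes the tested genes and not the list. The maternally expressed Meg3 read 210.5, 98.7 and 129.5 units in RS and 6662, 7106 and 6794 in SLC (49.3-fold). Dlk1, Peg10, Mest and Snrpn were among the imprinted genes under the filter. Cdkn1c, a maternally expressed inhibitor of the cell cycle, was lower without reaching 2-fold (log2 -0.71).

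Lipid synthesis separated into a large and a modest part. Scd1, which makes monounsaturated fatty acids, read 64.2, 56.8 and 13.1 units in RS and 13296, 14750 and 13950 in SLC and rose at least 290-fold. Scd2 rose 87.4-fold, and 14 of 22 fatty acid genes rose. Of 21 sterol genes 9 rose, with a list median of 0.66 (0.40 and 0.33 under median centring and quantile normalization). Msmo1, a demethylating enzyme of cholesterol synthesis, rose 37.5-fold, whereas Fdft1, squalene synthase, was already at 14596, 15662 and 16107 units in RS and lower in SLC (log2 -0.50). Hmgcs1, the enzyme that condenses the first precursor, read 1428, 1212 and 1443 units in RS and 5601, 5423 and 5511 in SLC and rose 4.06-fold (adjusted p = 4.23e-08).

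The Hmgcs1 promoter, chr13:119690101-119690350 (RefSeq, GRCm38.p6, plus strand), is the one in the sterol list that held the sterol regulatory element TCACNCCAC. Capitals mark that element and 3 CCAAT boxes, all read as ATTGG on the other strand.
Hmgcs1 promoter: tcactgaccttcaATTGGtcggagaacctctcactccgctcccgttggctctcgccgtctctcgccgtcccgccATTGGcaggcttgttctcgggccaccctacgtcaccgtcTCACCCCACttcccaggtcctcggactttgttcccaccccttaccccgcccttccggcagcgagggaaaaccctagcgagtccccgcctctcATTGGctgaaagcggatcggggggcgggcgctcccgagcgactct
The CCAAT box occurred on either strand in 18 of 22 windows of the sterol list (81.8%) and in 33.8% of all windows, 34.8% of those of tested genes and 32.3% of those of genes that rose. No test was made of these shares.

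Of 28 tested lysosome genes 23 rose (82.1%) and none fell, against 24% and 3.72% of all genes. Genes of these lists that were dim in RS entered the test only through SLC. The lysosome rises were led by the cathepsins Ctsz, which read 102, 102 and 132 units in RS and 5789, 5555 and 5717 in SLC (51.2-fold), and Ctsb (49.6-fold). In the unfolded protein response 9 of 24 rose, including Xbp1 (16.1-fold) and Atf4 (8.73-fold). In the heat shock list 8 of 17 rose, among them Hspb8 (at least 65.6-fold), while Dnajb13, a chaperone of sperm radial spokes, was at log2 -0.75. The list median was 0.23, and -0.04 with median centring. Without a minimum fold, 8 heat shock genes were higher and 8 lower at an adjusted limma p under 0.05. Of 32 antioxidant genes 16 rose, including Gpx3 (at least 126-fold) and Mgst1 (64.2-fold). By the same p without a minimum fold, 20 of the 32 were higher and 11 lower. Of 27 glycolysis and hypoxia genes 12 rose, among them Hk2 (28.6-fold), the glucose transporter Slc2a1 (26.8-fold) and Vegfa (at least 30.6-fold). In that list 15 were higher and 9 lower without a minimum fold.

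Of 76 oxidative phosphorylation genes 7 rose (9.21%) and none fell, against 24% and 3.72% of all genes. Without a minimum fold, 25 were higher and 29 lower at an adjusted limma p under 0.05. The list median was -0.07, and 0.17 under quantile normalization. Ndufa4 rose the most, from 286, 304 and 317 to 2912, 3036 and 3241 units (10.1-fold). Of 38 proteasome genes 6 rose (15.8%), with a median of 0.22 (-0.04 with median centring). Of 45 cytosolic ribosomal protein genes 8 rose (17.8%), with a median of 0.28 (0.02 with median centring and 0.55 with quantile normalization). Both shares were also under the 24% of all genes. Rps29 and Eef1a1, at about the top of the range in both groups, were at log2 -0.20 and -0.06, and at 0.09 and 0.23 with quantile normalization. Among 18 tested histone genes H1f2, a linker histone, rose 37.2-fold and the variant H3f3b rose 3.27-fold.

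Shares of rises in larger gene families are read against the 24% of all genes. A gene dim in RS passed the filter only where it was bright in SLC, so each share describes the tested genes of a family. Of 31 tested kinesins 4 rose (12.9%) and 1 fell, and with median centring 13 fell. Kif5b, the conventional kinesin of most cells, read 236, 271 and 285 units in RS and 1021, 1193 and 1220 in SLC and rose 4.34-fold. Of 17 tubulin genes 4 rose (23.5%), among them Tubb5 (7.68-fold), and Tube1, a centriolar tubulin, fell 2.28-fold. Of 16 integrin genes 6 rose (37.5%) and none fell (median 0.27, and -0.17 with quantile normalization), led by Itgav (35.8-fold) and Itgb1 (18.2-fold), which are subunits of receptors for the matrix proteins described above. Itgae was bright in both groups and lower in SLC (log2 -0.66).

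Of 33 Hox genes on the array 13 were tested, and 6 of these rose (46.2%). Hoxc8 read 3.95, 16.2 and 37.95 units in RS and 408, 472 and 502 in SLC and rose at least 13.9-fold, and Hoxd9 rose 13.8-fold. Hoxa4 and Hoxd8 were lower in SLC without a call (log2 -0.86 and -0.48). Of 66 chemokine and interleukin receptor genes on the array 31 were tested, and 17 of these rose (54.8%) and 1 fell. Cxcl5, a neutrophil chemokine, lay at the floor on 2 RS arrays. It read 1.83, 10.96 and 33.7 units in RS and 1456, 1395 and 1522 in SLC. Of 40 serpins on the array 17 were tested, and 10 of these rose (58.8%). Among them Serpinf1, a secreted inhibitor of vessel growth, read 102, 107 and 128 units in RS and 8213, 7364 and 7407 in SLC (68.3-fold). Of 16 aminoacyl-tRNA synthetases 5 rose (31.2%), and Nars rose the most (7.82-fold). Of 202 solute carriers 68 rose (33.7%) and 9 fell, with a median of 0.20 that was -0.06 with median centring and -0.15 with quantile normalization. Slc38a2, an amino acid carrier induced by amino acid shortage, rose 24.9-fold. Of 239 Zfp zinc finger genes 47 rose (19.7%) and 6 fell, and 40 fell with median centring. Of 57 Rab genes 22 rose (38.6%) and 3 fell.

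The X chromosome is silenced at meiosis in male germ cells and stays largely repressed in round spermatids. Of 618 X-linked genes on the array 414 were tested. Among these 187 rose (45.2%) and 8 fell (1.93%), against 18.5% to 29.7% of tested genes that rose on each autosome. A gene dim in RS entered the test only where it was bright in SLC, so these shares describe tested genes and not whole chromosomes. The median difference was 0.72 for X-linked genes and from -0.35 to -0.05 for the autosomes. With median centring 173 X-linked genes rose and 72 fell, and with quantile normalization 159 rose and 75 fell. Smarca1, a chromatin remodelling enzyme, rose at least 68-fold, and Acsl4, which activates arachidonic acid, rose at least 103-fold. Testis genes of the X were not among the rises named here: Akap4 read 22996, 22016 and 22162 units in RS and 15341, 15138 and 14408 in SLC, and Cylc1 fell. The difference between the X and the autosomes was not tested, and X-linked genes of the somatic and stress lists are among the 187. On the Y, 1 of 8 tested genes rose: Kdm5d, a histone demethylase, from 28.1, 33.2 and 30.1 to 166, 163 and 215 units (log2 2.51, and 0.97 with the floor at the 50th percentile).

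**Figure D5:**
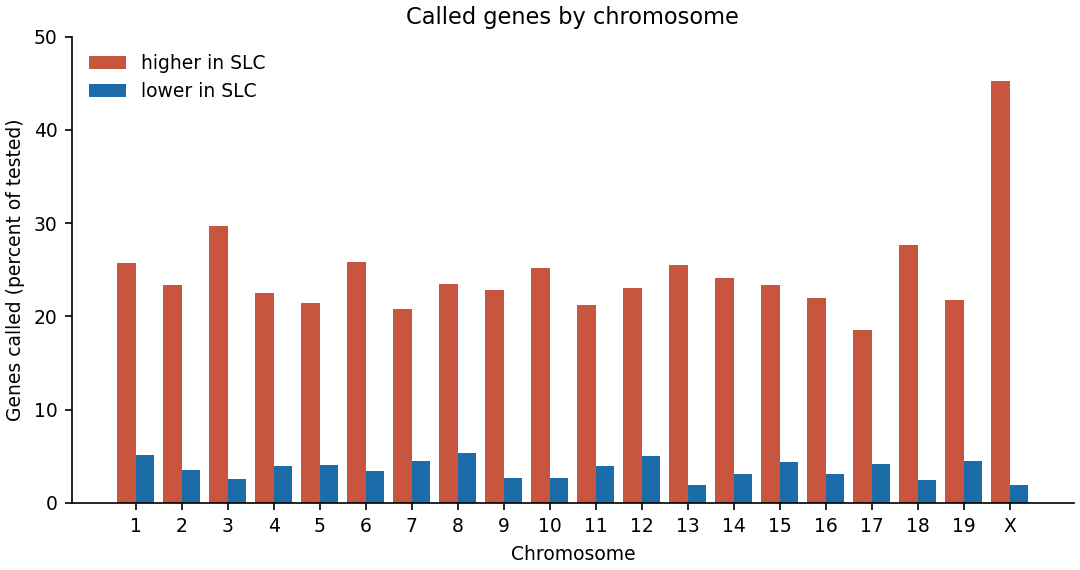
Percent of tested genes called higher (red) and lower (blue) in SLC than RS, for each autosome and the X chromosome. The X stands at 45.2% higher, and the autosomes lie between 18.5% and 29.7%.

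The largest rises of single genes exceeded 100-fold. Ctla2a, an inhibitor of cathepsin-like proteases, read 94.97, 56.7 and 111 units in RS and 17162, 16544 and 15702 in SLC and rose 196-fold, the most among genes above the floor on every array. F2r, a thrombin receptor, rose 152-fold, and Prss23, a secreted protease, rose 112-fold. Of the genes at the floor on all RS arrays, the brightest in SLC after Hp were Abcb1b, a drug efflux pump, at 7694, 6758 and 7152 units and Gsta3, a glutathione transferase, at 4600, 4724 and 4994. Of the 442 genes that rose at least 16-fold, 45 were at the floor on all RS arrays.

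Dlgap3, known as a postsynaptic scaffold, read 358, 222 and 278 units in RS and 47.6, 125 and 33.7 in SLC and fell 4.8-fold. Agtrap read 587, 585 and 436 units in RS and 55.4, 342 and 122 in SLC, a fall of 4.02-fold in which SLC replicate 2 lay far above the other SLC arrays and which was not called (adjusted p = 0.0604, limma) when no filter on low signal was used. G6pd2, an intronless copy of the glucose-6-phosphate dehydrogenase gene, fell 3.55-fold. Except for Agtrap and Dlgap3, no fall passed 4-fold. No gene fell to the floor on all SLC arrays among those called.

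Most genes that rose in SLC were above 92.0 units on the arrays of the earlier germ cells of the series, as were most genes that were not called. That level is the median of the whole table, so the shares do not compare the amount of signal with that in SLC. Of the 3118 genes that rose, 85.9% were above 92.0 units on all 3 PGCLC arrays and 78.7% on all 3 PGC arrays. For the 9397 genes that were not called these shares were 70.9% and 69.6%, and for the 483 that fell, 28.4% and 28.8%.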

How the data were processed

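Per the labels' protocols, RNA was hybridised to Affymetrix 3' arrays. The authors deposited 1 linear intensity for each probe set, and the trimmed mean of these intensities was the same on every array of the deposited table. Probe sets were named through GEO's platform annotation, and each gene kept the probe set with the highest mean. Intensities below 30.75 units, the 25th percentile of the 12-array table, were set to that value, log2 was taken, and genes above the table's median, 92.0 units, on at least 3 of the 6 arrays were fitted with limma 3.58.1 in R 4.3.3 (lmFit, eBayes with an intensity trend, Benjamini-Hochberg adjustment over 12998 genes). On data simulated from the means and spreads of the same 6 arrays, 82.3% of 200 genes moved by 1.5 on the log2 scale and 90.2% of those moved by 2 were recovered, none in the wrong direction, with a mean of 3 and 4 false calls. The simulated noise was independent and normal, 200 genes moved up or down at random, and scaling did not differ. These rates therefore do not cover errors from the scaling of the arrays.

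The groups, gene lists and named genes were chosen with earlier results of these data known. Genes were named by rule: the 12 largest measured rises and falls, the 3 brightest rises from the floor, up to 3 extreme members of each list in each direction, the 10 brightest genes of each group, and landmarks. Further marker genes, the pairs of testis and widely expressed genes, and genes whose promoters held a motif were named after their values were seen. Motifs were searched on both strands of RefSeq promoter windows (250 bases, GRCm38.p6), which matched 10519 of the 12998 genes. The number of arrays limits the precision. Apart from the floor and filter levels, the arrays of PGC and PGCLC entered only the shares of genes above 92.0 units there and 1 alternative fit.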

Additional observations from a re-analysis of the deposited data

How the results depend on the processing

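The reported counts were 3118 genes higher and 483 lower in SLC. Counts that moved by more than 1.5 times were those with the filter at the 75th percentile, which tested 8006 genes (1890 higher and 249 lower), and the lower counts with median centring (2587) and quantile normalization (2401). These scalings gave 2741 and 2546 higher genes, and the remaining settings run gave 2778 to 3227 higher and 346 to 596 lower. Leaving out 1 array gave 3054 to 3197 higher and 477 to 596 lower, the last without RS replicate 1. With the replicate number as a block the counts were 3128 and 489. Arrays with the same number did not deviate together (r = 0.15, 0.01 and 0.09), so the numbers name the arrays and do not pair them. Of 169 genes named by the rule, 127 kept their direction and side of the threshold under all 17 settings run. The 4 that reversed did so with quantile normalization: Klf4 (0.27), Rps29 (0.09), Prm2 (0.02) and Eef1a1 (0.23). The cause was not tested. A further 24 lost their call and 14 gained one under at least 1 setting. Genes dim in both groups were not tested, and the low signal of many somatic genes in RS makes their folds depend on the floor.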
